A study of Mus musculus with 6 samples.

Results

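H3K4me3 peak lists from STHdhQ111 cells treated with cyproheptadine, loxapine, diacylglycerol kinase inhibitor II (DKI) or meclizine were set against the list from STHdhQ7 cells, named Q7SST. These are 5 of the 6 lists in the series, and the sixth, Q111SST, is the vehicle-treated STHdhQ111 control. STHdh cells are immortalized mouse striatal progenitors with a C57BL/6 background. STHdhQ7 cells express wild-type huntingtin, and STHdhQ111 cells express huntingtin with an expanded polyglutamine tract, which is the lesion behind Huntington's disease. All cells were without serum for 24 hours, and each compound was given at 10 µM. Cyproheptadine and meclizine are antihistamines, loxapine is an antipsychotic, and DKI inhibits enzymes that convert diacylglycerol to phosphatidic acid. The study placed cyproheptadine and loxapine in its Group A, and DKI and meclizine in its Group B. There was 1 list per condition, so there is no spread between replicates and no test was made. Each line is represented by 1 cell line, so the huntingtin allele, other differences between the lines and the compound cannot be told apart in this comparison.

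H3K4me3 is trimethylation of lysine 4 on histone H3. It is deposited around transcription start sites by SET1/COMPASS and MLL complexes, which are drawn to unmethylated CpG-rich DNA, and it is found at active promoters and at poised promoters of developmental genes. A change in the mark at a promoter is therefore not a measurement of its transcript. In a bulk culture, a weaker mark in every cell and a mark in fewer cells cannot be told apart.

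A promoter was called marked where a peak lay within 1 kb of an annotated start of a protein-coding gene (GENCODE vM21, GRCm38), and strength is given as the percentile of the strongest such peak by score within the same list, with 0 for no peak. Where 4 compound values are given in a row, their order is cyproheptadine, loxapine, DKI and meclizine. At least 1 of the 5 lists marked 13445 of the 21911 protein-coding genes, and all 5 marked 11456. All 4 compound lists differed from Q7SST in the same direction at 1096 promoters, or 8.15% of the 13445. Of these, 324 (2.41%) were on the higher side and 772 (5.74%) on the lower side. The higher side held 204 promoters with a peak in each compound list and none in Q7SST (1.52%), and 120 marked in all 5 lists and at least 20 percentile points higher in all 4 (1.05% of 11456). The median Q7SST percentile over these 11456 was 82.4, so most of them had no room to be 20 percentile points higher, while they could be lower. The lower side held 659 promoters marked in Q7SST and in none of the 4 compound lists (4.9%), and 113 at least 20 percentile points lower in all 4 (0.986%). Percentiles taken among marked promoters raised the higher group to 242 and the lower group to 360, and leaving out the loxapine or the meclizine list raised the lower group to 176 or 202. A stricter score threshold, described in the closing section, kept only the smaller part of each of the 4 groups. Q7SST only, and compound lists only, refer below to these 5 lists and leave Q111SST aside. Some neighbouring genes share peaks, and the 4 groups came down to 201, 115, 651 and 112 entries with different peaks.

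Sequence in front of the start is shown for leading promoters of each group, with CpG dinucleotides in capitals, because the groups differed in how many these 250 bases held. They are the leading members whose window held at most 5 bases of annotated exons. Each run ends 1 base before the annotated start nearest to the strongest peak. Pctp (chr11:90002895-90003144, minus strand), Tep1 (chr14:50870561-50870810, minus strand) and Mst1 (chr9:108080186-108080435, plus strand) were marked in the 4 compound lists and not in Q7SST, Slc45a2 (chr15:11000471-11000720, plus strand), Tlr1 (chr5:64933562-64933811, minus strand) and Zfp882 (chr8:71908358-71908607, plus strand) in Q7SST only, Aldh1a1 (chr19:20601711-20601960, plus strand) was higher and Lhx2 (chr2:38339031-38339280, plus strand) was lower. The bases were read from the RefSeq GRCm38.p6 genome.
Pctp: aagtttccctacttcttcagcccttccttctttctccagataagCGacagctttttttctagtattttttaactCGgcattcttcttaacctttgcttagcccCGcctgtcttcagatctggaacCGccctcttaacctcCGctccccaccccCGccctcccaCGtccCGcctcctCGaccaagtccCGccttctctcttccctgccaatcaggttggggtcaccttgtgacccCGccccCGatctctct
Tep1: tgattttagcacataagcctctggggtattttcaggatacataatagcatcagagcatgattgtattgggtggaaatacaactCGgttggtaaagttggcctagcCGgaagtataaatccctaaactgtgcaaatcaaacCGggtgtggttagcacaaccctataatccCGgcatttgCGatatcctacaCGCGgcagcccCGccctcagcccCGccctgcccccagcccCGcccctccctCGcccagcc
Mst1: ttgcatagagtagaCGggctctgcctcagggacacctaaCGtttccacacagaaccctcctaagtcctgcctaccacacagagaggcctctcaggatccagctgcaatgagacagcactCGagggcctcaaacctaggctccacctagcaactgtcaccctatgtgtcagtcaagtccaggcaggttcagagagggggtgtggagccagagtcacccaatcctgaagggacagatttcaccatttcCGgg
Slc45a2: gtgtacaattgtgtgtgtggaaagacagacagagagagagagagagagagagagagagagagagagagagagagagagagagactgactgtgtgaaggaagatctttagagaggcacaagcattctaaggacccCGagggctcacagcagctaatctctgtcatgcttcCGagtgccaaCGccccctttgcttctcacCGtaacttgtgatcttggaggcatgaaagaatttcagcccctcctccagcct
Tlr1: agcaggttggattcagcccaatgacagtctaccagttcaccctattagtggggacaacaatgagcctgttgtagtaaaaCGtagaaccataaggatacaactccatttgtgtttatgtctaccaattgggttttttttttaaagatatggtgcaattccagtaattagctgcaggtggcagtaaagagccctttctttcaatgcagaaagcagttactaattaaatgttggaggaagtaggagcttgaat
Zfp882: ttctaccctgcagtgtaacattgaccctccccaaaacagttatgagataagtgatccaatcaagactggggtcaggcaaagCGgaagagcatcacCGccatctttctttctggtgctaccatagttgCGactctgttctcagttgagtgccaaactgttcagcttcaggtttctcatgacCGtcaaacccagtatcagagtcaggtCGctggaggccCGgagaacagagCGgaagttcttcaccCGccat
Aldh1a1: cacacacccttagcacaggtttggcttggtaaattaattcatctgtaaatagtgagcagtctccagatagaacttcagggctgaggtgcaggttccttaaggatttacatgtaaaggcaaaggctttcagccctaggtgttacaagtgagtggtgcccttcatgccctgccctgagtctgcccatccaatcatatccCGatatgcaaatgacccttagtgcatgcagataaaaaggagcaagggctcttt
Lhx2: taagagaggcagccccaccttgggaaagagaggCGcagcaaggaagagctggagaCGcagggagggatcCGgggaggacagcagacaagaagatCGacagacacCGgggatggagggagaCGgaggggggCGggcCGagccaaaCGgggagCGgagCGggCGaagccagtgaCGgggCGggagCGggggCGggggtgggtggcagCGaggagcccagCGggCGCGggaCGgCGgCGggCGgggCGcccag
The Lhx2 window held 25 CpG dinucleotides, against 12 for Pctp, 11 for Tep1, 8 for Zfp882, 4 for Mst1, 4 for Slc45a2, 1 for Tlr1 and 1 for Aldh1a1. These single promoters do not stand for their groups, since the 3 Q7SST-only windows held fewer than Pctp and Tep1 while the group medians, given below, run the other way.

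The lists differed in size and in overall strength. Q7SST held 38392 peaks and marked 12837 promoters, and the compound lists held between 30758 (DKI) and 45564 (loxapine) peaks and marked between 11861 (cyproheptadine) and 12556 (meclizine) promoters. Over the 11456 promoters marked in all 5 lists, the median differences from Q7SST were -2.21, 0.91, -4.71 and -0.19 percentile points. The number of reads behind a list is unknown here, since read totals were not used. Q111SST held 40406 peaks and marked 12515 promoters, and it is given below only as a level, since its comparison with Q7SST shares that list with the 4 compound comparisons.

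**Figure D1:**
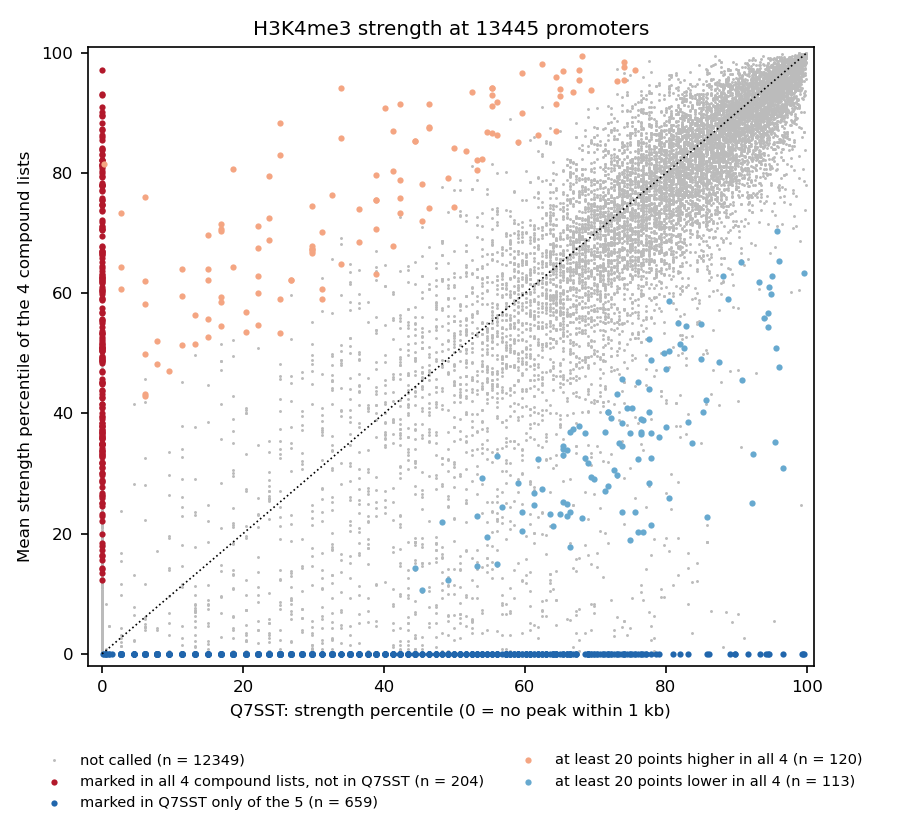
Strength percentile in Q7SST (x axis, 0 for no peak) against the mean strength percentile of the 4 compound lists (y axis) at 13445 promoters, 1 point each. The 204 promoters marked in the compound lists only lie on the left edge, the 659 marked in Q7SST only lie on the bottom edge, and the 120 higher and 113 lower promoters lie off the dotted line of equality.

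Among promoters marked in the 4 compound lists and absent from Q7SST, D2hgdh was the strongest. It encodes the mitochondrial enzyme that oxidizes D-2-hydroxyglutarate. Its strength percentile was 0 in Q7SST, and 97.0, 96.3, 97.3 and 98.3 in the compound lists, beside 99.4 in Q111SST. The meclizine peak, at chr1:93824778-93826135, spanned a start of the gene with coding exon and intron sequence behind it, and the nearest Q7SST peak was 10768 bp away. The compounds and the mutant control were all near the top of their lists, and Q7SST had no peak there.

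Pctp, which encodes a phosphatidylcholine transfer protein, was at 92.2, 91.7, 95.02 and 93.8 with the compounds, and at 91.1 in Q111SST. The DKI peak covered the start at chr11:90002187-90003303. No Q7SST peak lay closer than 166997 bp. Scn3a, a voltage-gated sodium channel of embryonic and immature neurons, was at 89.2, 93.3, 92.8 and 96.8 and at 97.3 in Q111SST, with its nearest Q7SST peak 83541 bp away. At both genes the compound lists and Q111SST were high and close to each other.

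Tep1, encoding a telomerase-associated protein, was at 89.2, 93.7, 89.7 and 91.6 with the compounds. Mfsd10, a membrane transporter of the major facilitator family, was at 87.5, 88.0, 85.9 and 92.3. Pon3, a lactonase of the paraoxonase family, was at 85.7, 92.5, 92.1 and 90.5. Zfp182, an X-linked zinc finger gene, was at 85.7, 84.0, 93.4 and 95.1. In Q111SST these 4 promoters were at 93.0, 93.7, 95.3 and 96.0. Mst1, encoding macrophage-stimulating protein, was at 88.5, 88.0, 93.6 and 88.6, and is a case of the 1 kb limit. Its compound peaks lay between 821 and 997 bp from the start, and a Q7SST peak lay 1053 bp from it.

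Most of the 204 were of middling strength. By the mean of the 4 lists, 15 lay below the 25th percentile, 78 between the 25th and 50th, 71 between the 50th and 75th and 40 (19.6%) above it. The distance to the nearest Q7SST peak had a median of 15170 bp, and 48 of the 204 had a Q7SST peak within 5 kb. At 103 of them a peak lay over a start in each of the 4 lists. The weakest were Xkr9, at 0.060 with DKI, and Bnc1, at 1.16 with DKI. The 1 kb limit touched few promoters, as 17 of the 204 had a Q7SST peak, and 36 of the 659 marked in Q7SST only had a compound peak, within 1.5 kb of a start. Besides Mst1, the genes named here that this holds for are Sox2 and Itgb2 of the 204, and Zfp605, Dlx1, Ptprr, Col4a6, Hoxa13 and Aif1 of the 659.

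**Figure D2:**
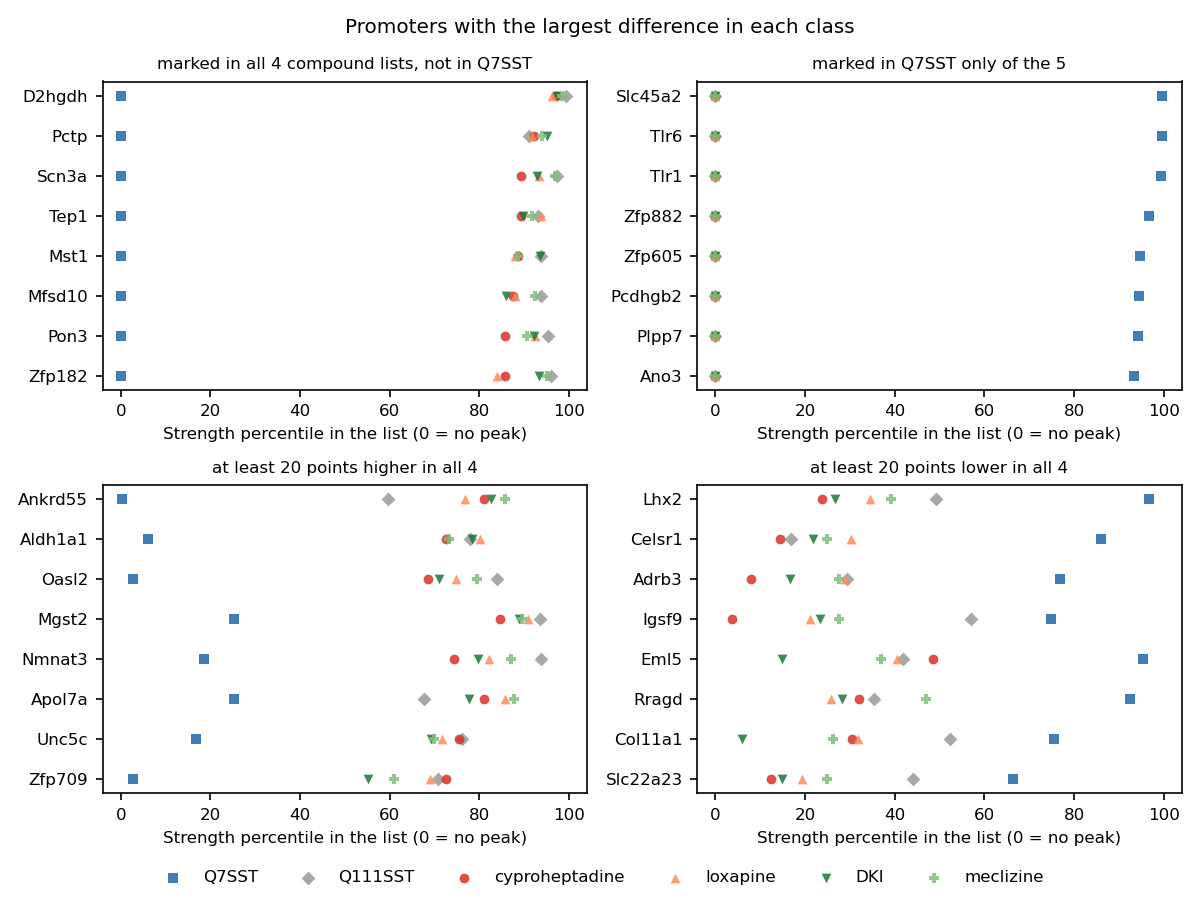
Strength percentile (x axis, 0 for no peak) of the 8 leading promoters in each of the 4 groups, with 1 symbol per list. Q7SST squares lie away from all 4 compound symbols in each row, and the grey Q111SST diamonds lie at 0 in all 8 rows of the Q7SST-only panel and on the compounds' side of Q7SST in the other panels.

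Promoters marked in Q7SST and in none of the 4 compound lists were led by Slc45a2, Tlr6 and Tlr1. Slc45a2 encodes a transporter of the melanosome membrane required for pigmentation, and had a percentile of 99.6 in Q7SST. Its peak was 317 bp wide, at chr15:10999716-11000032, 689 bp upstream of the start and outside annotated exons. Tlr6 and Tlr1 are neighbouring genes for receptors that pair with Tlr2 to recognize bacterial lipoproteins. Their percentiles in Q7SST were 99.5 and 99.3, with separate peaks over their first exons at chr5:64959214-64960102 and chr5:64933316-64933603. The 4 compound lists and Q111SST held no peak closer than 8949 bp to Tlr6 or 35435 bp to Tlr1. The Slc45a2 and Tlr1 peaks were narrow for their scores, at 317 and 288 bp against a median Q7SST width of 889 bp.

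The zinc finger genes Zfp882 and Zfp605 were at 96.7 and 94.7 in Q7SST, and Pcdhgb2, a clustered protocadherin of neuronal cell surfaces, was at 94.5. Plpp7, of the phospholipid phosphatase family, was at 94.2, and Ano3, of the anoctamin family, was at 93.4. None of these had a peak within 1 kb in the 4 compound lists or in Q111SST. The compound peaks nearest to Zfp605 lay between 1277 and 1451 bp away, so this promoter too was near the 1 kb limit, while the nearest to Ano3 lay 240431 bp away or more.

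By Q7SST strength, 231 of the 659 lay below the 25th percentile, 246 between the 25th and 50th, 153 between the 50th and 75th, and 29 (4.40%) above it. These shares are not comparable with those of the 204, which had to hold a peak in 4 lists and not in 1. A compound peak lay within 5 kb of 143 of the 659, and the Q7SST peak lay over a start at 384. Ptprb, at 0.137, and Tlx1, at 0.333, were the weakest in Q7SST.

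Of the promoters marked in all 5 lists and higher with the 4 compounds, Ankrd55, an ankyrin repeat gene, differed most. It was at 0.333 in Q7SST and at 80.9, 76.8, 82.6 and 85.8 with the compounds. Q111SST was at 59.6. The meclizine peak, at chr13:112318151-112318673, covered an internal start of the gene. Aldh1a1, which oxidizes retinaldehyde to retinoic acid, was at 6.14 in Q7SST and at 72.6, 80.1, 78.2 and 73.3 with the compounds. Oasl2, an interferon-induced oligoadenylate synthetase-like gene, was at 2.76 in Q7SST and at 68.4, 74.8, 71.0 and 79.5. Their Q111SST values were 77.9 and 84.0, so both were high in each list from STHdhQ111 cells.

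Mgst2, a microsomal glutathione transferase, was at 25.2 in Q7SST and at 84.6, 90.8, 88.8 and 89.5 with the compounds. Nmnat3, which makes NAD in mitochondria, was at 18.6 in Q7SST and at 74.3, 82.1, 79.6 and 87.0. Unc5c, a netrin receptor of axon guidance, was at 16.9 in Q7SST and at 75.4, 71.7, 69.2 and 69.9. Apol7a, of the apolipoprotein L family, and the zinc finger gene Zfp709 completed the leading 8, with Q7SST values of 25.2 and 2.76 against lowest compound values of 77.7 and 55.1. Among the 120 were Gm10722, Gm11168 and Gm10715, near-identical gene models at one end of chromosome 9, where reads could have been divided between copies. They are named for that reason after their values were seen. Ctdsp2 and Il1r1, with smallest differences of 20.02 and 20.14 percentile points, were just inside the threshold, and Crybg1 and Dhtkd1, at 19.97 and 19.88, were just outside.

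Lhx2, a LIM-homeodomain gene of forebrain patterning, led the promoters that were lower with the 4 compounds. It was at 96.7 in Q7SST and at 23.9, 34.5, 26.6 and 39.1 with the compounds, but these values come from different peaks at its 2 starts. The Q7SST peak lay inside the gene, downstream of its first start, at chr2:38339643-38340550, where the compound lists were at 0, 6.65, 0 and 0 and Q111SST was at 22.4. The compound values come from the second start, with a cyproheptadine peak at chr2:38350328-38351016, where Q7SST and Q111SST were both at 49.1. At 11 of the 113 lower and 12 of the 120 higher promoters the strongest peak of at least 1 compound did not overlap that of Q7SST, among them Il1r1 and Gm10715. Celsr1, an adhesion receptor of planar cell polarity, was at 85.9 in Q7SST and at 14.4, 30.3, 21.8 and 24.9 with the compounds. Adrb3, a beta-adrenergic receptor best known from fat, was at 76.8 in Q7SST and at 7.94, 28.9, 16.7 and 27.6. Celsr1 and Adrb3 were at 16.8 and 29.3 in Q111SST, within or close to the range of the 4 compounds.

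Igsf9, an immunoglobulin superfamily gene of neuronal dendrites, was at 74.9 in Q7SST and at 3.80, 21.1, 23.4 and 27.6 with the compounds, against 56.9 in Q111SST. Rragd, a GTPase that relays amino acid supply to mTOR, was at 92.5 in Q7SST and at 32.0, 25.9, 28.1 and 47.1. The microtubule-associated gene Eml5 was at 95.5 in Q7SST and at 48.6, 40.6, 14.9 and 37.0. The highest compound value was 47.3 percentile points below Q7SST at Igsf9, 45.4 at Rragd and 46.9 at Eml5. The fibrillar collagen gene Col11a1 and the organic ion transporter gene Slc22a23 had Q7SST values of 75.6 and 66.4 and highest compound values of 31.8 and 24.9. At the threshold, Fkbp5 and Hes1 were just inside, with smallest differences of 20.25 and 20.36 percentile points, and Adcy8 and Ywhaz were just outside, at 19.98 and 19.93.

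Htt, the gene that differs between the 2 lines by design, was not among the 1096. Its promoter was at 74.5 in Q7SST, 69.7, 79.0, 61.3 and 90.3 in the compound lists, and 79.4 in Q111SST. The compound values lay on both sides of Q7SST.

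The promoters of the higher side had few CpG dinucleotides, which the calls did not use. In the 250 bases before the start, the median was 6.5 (quartiles 3 and 14) for promoters marked in the compound lists only, and 8 (4 and 16) for the higher ones. The median was 11 (5 and 19) for promoters marked in Q7SST only and 16 (7 and 24) for the lower ones, against 17 (10 and 24) over all 13445. Fewer than 10 CpG dinucleotides were present in 61.8% of the promoters marked in the compound lists only, 55.0% of the higher ones, 42.8% of those marked in Q7SST only, 35.4% of the lower ones and 22.8% of all. The motif searched was CG, which reads the same on both strands, and 99.3% of these windows over all promoters held at least 1. The 4138 promoters marked in all 5 lists with a mean percentile between 25 and 75 had a median of 18 (11 and 25), and 20.8% held fewer than 10. A low count was shared by the 1126 promoters marked in some of the 5 lists and not called, which had a median of 9 (4 and 18), and 51.8% held fewer than 10. It was thus not particular to the promoters marked in the compound lists only or in Q7SST only. The higher promoters, marked in all 5 lists, had fewer than the 4138, with medians of 8 and 18. Neighbouring and paralogous promoters are not independent, and the shares describe these promoters.

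**Figure D3:**
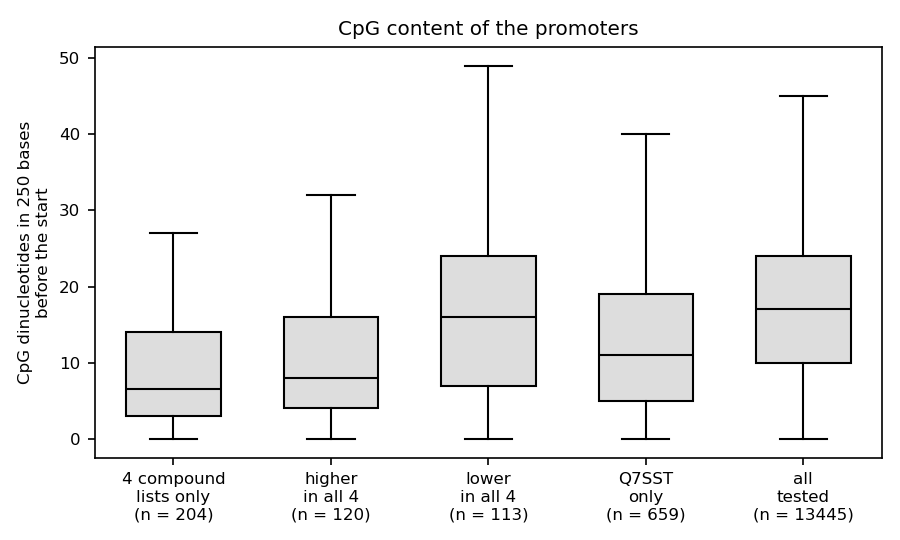
CpG dinucleotides in the 250 bases before the start (y axis) for each of the 4 groups and for all 13445 promoters. Boxes show quartiles with the median and whiskers reach the farthest value within 1.5 box lengths, and the medians run from 6.5 for promoters marked in the compound lists only to 17 over all promoters.

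Peak widths differed along with strength. For the 113 lower promoters the median peak was 1387 bp wide in Q7SST, against 819, 1161, 789 and 1155 bp with the compounds. For the 120 higher promoters it was 1078.5 bp in Q7SST and 1317, 1519.5, 1270 and 1461 bp with the compounds. Over all promoters marked in all 5 lists the medians were 1796 bp in Q7SST and 1572, 1789, 1494 and 1744 bp, so that the higher promoters were wider with every compound than in Q7SST while all promoters together were not.

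The number of compound lists that differed from Q7SST was counted at each promoter, and since all 4 are compared with the single Q7SST list these counts are not independent. Of promoters marked in at least 1 compound list and not in Q7SST, 188 were marked in 1 compound list, 114 in 2, 102 in 3 and 204 in all 4. Of promoters marked in Q7SST and missing from at least 1 compound list, 238 were missing from 1, 270 from 2, 214 from 3 and 659 from all 4. Differences of at least 20 percentile points gave 304, 114, 81 and 120 promoters higher and 1162, 403, 166 and 113 lower in 1, 2, 3 and 4 lists. Without a threshold, all 4 compounds were higher than Q7SST at 1874 promoters (16.4% of 11456) and lower at 3217 (28.1%).

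Taken singly, the compounds were uneven. Promoters marked in Q7SST and not in the compound list numbered 1263 (9.39%), 853 (6.34%), 1188 (8.84%) and 752 (5.59%). Promoters marked in the compound list and not in Q7SST numbered 287 (2.13%), 475 (3.53%), 305 (2.27%) and 471 (3.5%). At least 20 percentile points higher were 270 (2.36%), 441 (3.85%), 231 (2.02%) and 313 (2.73%) promoters, and at least 20 lower were 839 (7.32%), 322 (2.81%), 1463 (12.8%) and 294 (2.57%). Cyproheptadine and DKI had the larger numbers on the lower side and the shorter lists, with 33721 and 30758 peaks, and the part of list length in this was not tested.

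Within the groups the compounds differed in how far they stood from Q7SST. The median range over the 4 lists was 24.3 percentile points for promoters marked in the compound lists only, 12.3 for the higher ones and 21.2 for the lower ones. The list closest to Q7SST at the 204 was DKI at 95 promoters, cyproheptadine at 82, meclizine at 15 and loxapine at 12. At the 113 lower promoters it was meclizine at 51 and loxapine at 42, with cyproheptadine and DKI at 10 each. Cyproheptadine and DKI thus set the smaller difference at most promoters of the first group, and loxapine and meclizine at most of the second. Col10a1, a collagen of hypertrophic cartilage, had the widest range among the 204, at 33.5, 81.1, 7.80 and 10.8. No promoter had Group A and Group B that far on opposite sides of Q7SST: 0 were at least 20 percentile points above Q7SST in both compounds of one group and at least 20 below it in both of the other. This count leaves out promoters where the groups differed on the same side of Q7SST, as at Col10a1.

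The vehicle-treated mutant list stood with the compounds at most of these promoters. Of the 204 marked in the compound lists only, 199 (97.5%) were marked in Q111SST, and of the 659 marked in Q7SST only, 54 (8.19%) were, against 92.8% of all 13445. The median percentile of the 204 was 59.0 in Q111SST and 51.5 over the compounds. It was 77.6 and 74.98 for the higher promoters and 49.1 and 35.3 for the lower ones, where Q7SST was at 35.2 and 75.3. At the lower promoters Q111SST lay inside the range of the 4 compounds at 50, above it at 60 and below it at 3. Because each comparison uses Q7SST, these values are given side by side and not as support for one another.

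Developmental transcription factors were found on both sides. In each gene list here and below, a promoter marked in Q7SST only, or in the compound lists only, entered the marked total through that mark. Among the Hox cluster genes, which set position along the body axis, 4 of 29 marked promoters (13.8%) were on the higher side and 2 (6.90%) on the lower side, against 2.41% and 5.74% of all promoters, and the median of the mean difference was 14.4 percentile points over the 19 marked in all 5 lists, against -1.58 over all 11456. Hoxa5 was at 52.5 in Q7SST and at 92.5, 95.5, 97.2 and 88.8 with the compounds, against 81.3 in Q111SST. Hoxa3 was at 38.9 in Q7SST and at 79.5, 73.6, 71.5 and 77.2, and Hoxb7 was at 20.4 and at 47.6, 52.0, 61.3 and 53.5. Hoxd9 and Hoxa13 were marked in Q7SST only, at 31.3 and 7.83.

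Of 56 marked promoters of other homeobox and T-box genes, 11 (19.6%) were on the lower side, against 5.74% of all promoters, and 2 on the higher side. Of the 11, 8 were marked in Q7SST only. Over the 33 marked in all 5 lists the median of the mean difference was -5.63, against -1.58 over all 11456. Dlx1, which directs interneuron and striatal projection neuron development, was at 89.1 in Q7SST with a peak 992 bp from the start, and the nearest peaks of the compound lists lay 1382, 1467, 1453 and 1031 bp away, so this call too rests on the 1 kb limit. Tbx6 was at 48.2 in Q7SST and had no peak within 1 kb in the other lists. Otx1 was at 16.9 in Q7SST and at 64.5, 77.5, 66.1 and 74.5 with the compounds, and Meis2 was at 25.2 and at 49.6, 60.8, 49.9 and 53.5. Forkhead and Sox genes had 6 of 40 on the lower side and 1 on the higher side. The 1 was Sox2, a gene of neural stem cells, with no peak in Q7SST, 35.02, 50.3, 47.0 and 71.8 with the compounds and 65.6 in Q111SST. Sox11, a gene of immature neurons, was marked in Q7SST only, at 32.6, as was the lens gene Foxe3, at 26.8, and Sox5 was lower with the compounds, from 82.7 in Q7SST to at most 54.9. Zfp zinc finger genes, with 3 higher and 8 lower of 328, were under the share over all promoters on both sides.

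Receptor and channel genes of neurons are set beside shares over all promoters of 5.74% lower and 2.41% higher. Of 47 glutamate and GABA receptor genes, 32 were unmarked in all 5 lists. Of the 15 marked promoters 8 were on the lower side and none on the higher side, and all 8 entered the count through their peak in Q7SST only. Gabrb1, a subunit of the GABA-A receptor, was at 61.9 in Q7SST, and the kainate receptor genes Grik5 and Grik1 were at 53.2 and 31.3. The others were Gabra4 and the AMPA receptor genes Gria1, Gria2, Gria3 and Gria4, named after their values were seen, which lay between 9.57 and 22.1 in Q7SST. Potassium channel genes had 12 of 36 (33.3%) lower and 1 higher, but 11 of the 12 likewise entered the count through Q7SST only, and over the 12 promoters marked in all 5 lists the median of the mean difference was -3.02, against -1.58 over all promoters. The potassium channel genes called included Kcnf1 at 71.9 and Kcnn2 at 57.4 in Q7SST only, while Kcnk5 was marked in the compound lists only, at 54.2, 74.8, 57.5 and 60.5. Of 5 marked sodium channel promoters 2 were on the higher side, which were Scn3a, given above, and its neighbour Scn2a, at 75.6 in Q7SST and at 97.0, 97.1, 96.3 and 98.0 with the compounds. Over the 3 marked in all 5 lists, Scn2a among them, the median of the mean difference was -10.4.

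Adhesion and matrix genes were called on both sides, where all promoters together had 2.41% higher and 5.74% lower. Clustered protocadherin genes, which give neurons individual surface identities, had 8 of 19 on the lower side and 3 on the higher side. All 8 entered the count through their peak in Q7SST only, and 2 of the 3 through the compound lists only. Over the 5 marked in all 5 lists the median of the mean difference was 1.41, against -1.58 over all 11456. Pcdhga2 and Pcdhgb5 were marked in Q7SST only, at 72.3 and 71.1, whereas Pcdhga3 and Pcdhga5 were marked in the compound lists only, at 65.8, 68.0, 69.2 and 68.7 and at 67.1, 58.1, 58.3 and 65.7. These genes lie in arrays of similar copies, so their peaks are uncertain between neighbours. Collagen genes had 5 of 29 higher and 7 lower. Of these, 4 of the 5 were marked in the compound lists only and 6 of the 7 in Q7SST only. Over the 17 marked in all 5 lists the median of the mean difference was 2.21. Col1a2, a chain of type I collagen, had no peak in Q7SST and was at 60.2, 65.6, 48.9 and 62.1 with the compounds, and Col4a6, a basement membrane collagen, was at 50.8 in Q7SST only. Integrin genes had 2 of 22 higher and 7 lower, all through a mark in the compound lists only or in Q7SST only. Over the 12 marked in all 5 lists none was called, and the median of the mean difference was 2.67. The leukocyte integrins Itgb7 and Itgb2 were marked in the compound lists only, the latter with a Q7SST peak 1019 bp from the start. Itgb6, Itga10 and Itga8 were marked in Q7SST of the 5 lists, at 53.2, 35.2 and 35.2. Axon guidance genes had 7 of 55 lower and 1 higher, led by Epha3, at 55.4 in Q7SST only, and by Unc5c on the higher side. Wnt ligands and receptors, with 2 of 37 (5.41%) higher and 3 (8.11%) lower, were near the shares over all promoters, and held Wnt10a and Wnt10b, marked in the compound lists only, and Wnt5a, lower from 54.7 in Q7SST to at most 33.1.

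Of innate immune genes, interferon response genes had 7 of 43 (16.3%) on the higher side and 1 (2.33%) on the lower side, against 2.41% and 5.74% of all promoters. Of the 7, 5 entered the count through the compound lists only. Over the 28 marked in all 5 lists the median of the mean difference was 0.21, against -1.58 over all 11456. Oas1a, whose product senses double-stranded RNA, had no peak in Q7SST and was at 67.1, 83.0, 72.0 and 89.5 with the compounds and 90.9 in Q111SST. Isg15, a ubiquitin-like interferon-induced gene, had no peak in Q7SST and was at 65.8, 64.5, 61.3 and 63.6, and 59.0 in Q111SST. With Oasl2, described above, these led the higher side, and Oas1e was marked in Q7SST only, at 18.6. The Oas genes are a cluster of close paralogs, so reads could have been divided between them. Toll-like receptor pathway genes went both ways, with 2 of 17 higher and 3 lower. Tlr2 was at 29.8 in Q7SST and at 63.1, 68.0, 61.3 and 76.2 with the compounds, and Cd14, a co-receptor for lipopolysaccharide, was at 50.0 and at 85.7, 83.6, 76.8 and 90.7. Tlr6 and Tlr1, the partners of Tlr2, and the adaptor gene Ticam2, at 66.8, were marked in Q7SST only. H2 histocompatibility genes had 3 of 22 lower and none higher, with H2-Ab1, a class II gene, at 94.5 in Q7SST and at 48.6, 70.9, 48.9 and 58.8.

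**Figure D4:**
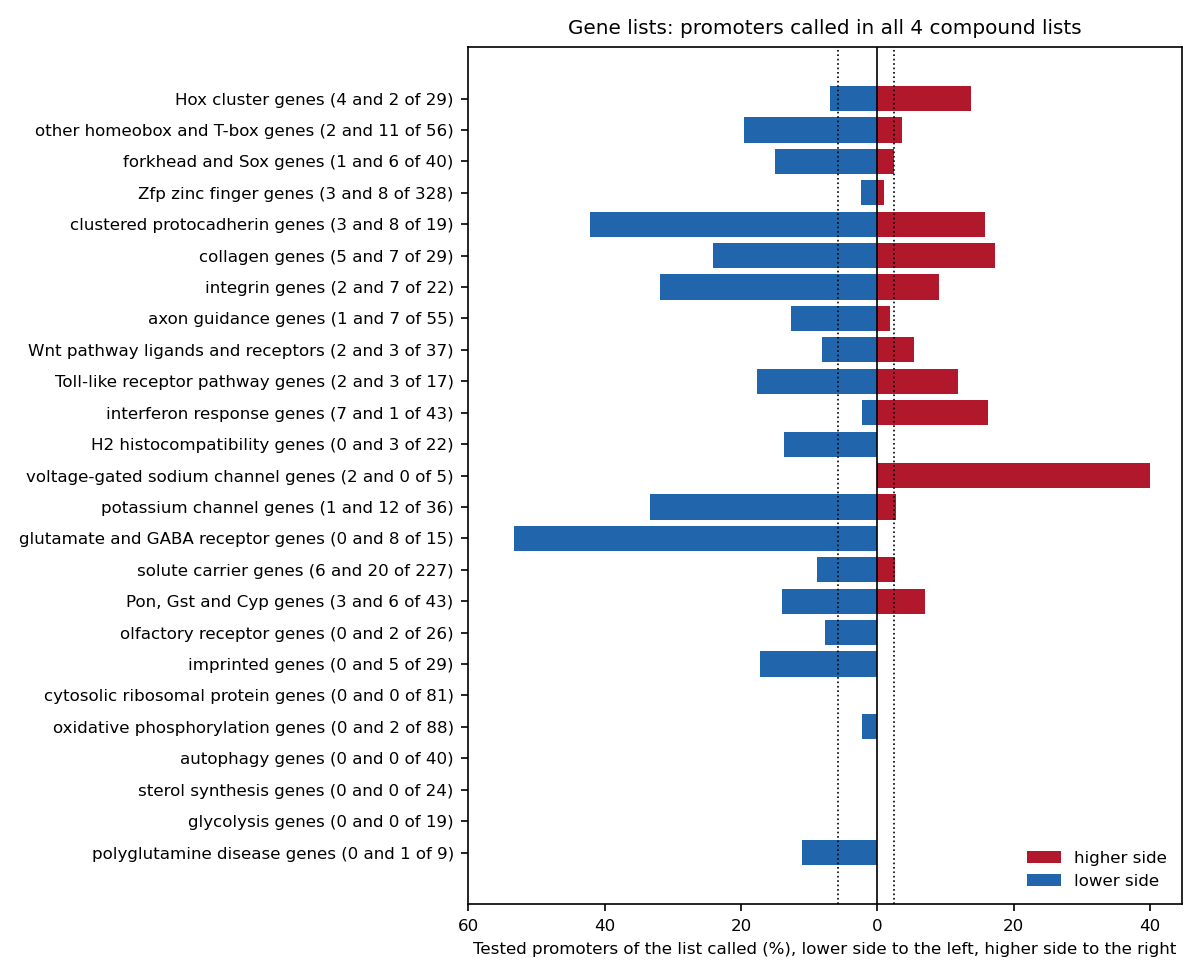
Share of the marked promoters of each of 25 gene lists called on the lower side (bars to the left) and on the higher side (bars to the right) in all 4 compound lists, in percent, with the counts higher and lower and the number marked in brackets. Dotted lines give the shares over all 13445 promoters, 5.74% and 2.41%, and housekeeping lists at the bottom have short bars or none.

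Solute carrier genes, with 2.64% higher (6 of 227) and 8.81% lower (20), were near the shares over all promoters of 2.41% and 5.74%. Among them were Slc2a3, a glucose transporter of neurons, at 81.1 in Q7SST only, and Slc43a3, marked in the compound lists only, at 58.5, 69.5, 55.9 and 69.1. Paraoxonase, glutathione transferase and cytochrome P450 genes had 3 of 43 higher, led by Pon3 and Mgst2, and 6 lower, led by Cyp4f37, at 86.2 in Q7SST only. Imprinted genes had 5 of 29 lower and none higher, among them Magel2 and Nnat, at 38.9 and 37.8 in Q7SST only, and Grb10, at 81.7 in Q7SST and at 51.5, 58.8, 49.9 and 59.9. Of 88 oxidative phosphorylation promoters 2 were on the lower side, Cox6b2 and Cox7a1, which are tissue-restricted isoforms, at 49.1 and 43.4 in Q7SST only. No promoter was called among 81 cytosolic ribosomal protein genes, 40 autophagy genes, 24 sterol synthesis genes and 19 glycolysis genes. All 5 lists held a peak at 81, 40, 24 and 18 of these, where only a difference of at least 20 percentile points could be called. Over all promoters marked in all 5 lists such calls took 1.05% higher and 0.986% lower, so lists of this size cannot show a lack of change. Of 26 marked olfactory receptor promoters 2 were on the lower side.

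Markers of the labelled cell type were only partly present. Of 12 neural progenitor markers 10 were marked in at least 1 of the 5 lists, and Hes5 and Msi1 had no peak in any. Nes, which encodes the progenitor filament nestin, was at 90.7 in Q7SST and at 0, 68.5, 32.2 and 37.0 with the compounds, and 41.9 in Q111SST, so it was below Q7SST in each but was not called because of the missing peak in 1 of them. Vim was at 54.7 in Q7SST and between 49.4 and 56.9 with the compounds. On the lower side were Prom1, at 35.2 in Q7SST only, and Hes1, at 53.9 in Q7SST and at 33.5, 28.9, 29.5 and 24.9. Of 12 transcription factors of the striatal lineage 11 were marked, with Six3 and Gsx2 in Q7SST only, Dlx1 likewise but by the 1 kb limit given above, and Nkx2-1 in none. Of 15 genes of mature striatal neurons 10 were marked, with Bcl11b, Tac1 and Adora2a in Q7SST only, at 54.7, 35.2 and 28.3, and the dopamine receptor genes Drd1 and Drd2 in none. In the same list Meis2, given above, was higher with the compounds, and Foxp1 was at 56.1 in Q7SST and at 73.8, 71.7, 68.6 and 73.3, above Q7SST in each but not called.

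Markers of glia and endothelium were mostly unmarked, and those of neurons and mesenchyme mostly marked. Of 8 pan-neuronal markers 5 were marked in at least 1 of the 5 lists, as were 2 of 7 for astrocytes, 2 of 8 for oligodendrocytes, 3 of 8 for microglia and 2 of 6 for endothelium. In these, 1 promoter was called, where 8.15% of all promoters were called on either side. It was Aif1 of microglia, at 6.14 in Q7SST, 4.91 in Q111SST and absent with the compounds. Gfap, Mog, Itgam and Pecam1 had no peak in any list. Mesenchymal genes were marked at 9 of 10, with 1 called (11.1%, against 2.41% of all promoters on the higher side), Col1a2, and Acta2 was at 86.5 in Q7SST and at 0, 22.7, 5.96 and 0 with the compounds. H3K4me3 can mark poised promoters, so these values check the mark and not expression.

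Neighbouring genes were called together at 5 places. Lgr5, Tspan8, Ptprr and Ptprb on chromosome 10 were marked in Q7SST only, at 46.4, 18.6, 71.9 and 0.137. So were Tram1l1, Ndst4 and Ugt8a on chromosome 3, at 56.1, 69.0 and 4.60, and Dmrta2, Elavl4 and Bend5 on chromosome 4, at 38.9, 13.2 and 74.9. The cadherin genes Cdh9, Cdh10 and Cdh12 on chromosome 15 were at 11.4, 35.2 and 22.1 in Q7SST only. These 4 runs had a separate peak for each gene. On chromosome 6 Hoxa5, Hoxa3 and the overlapping gene model Gm28308 were higher with 2 different peaks, those of Hoxa3 and Gm28308 being the same.

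By chromosome, leaving out Y with 3 marked promoters and none called, the higher side took between 0.91% of promoters (chromosome 17, 6 of 659, 95% Wilson interval 0.42 to 1.97) and 4.03% (X, 17 of 422, interval 2.53 to 6.36). Chromosomes 15 and 14 followed X, at 3.90% (21 of 538) and 3.51% (16 of 456), and chromosome 16 was next to chromosome 17, at 1.18% (5 of 424). The lower side took between 3.64% (chromosome 13, 20 of 549, interval 2.37 to 5.56) and 8.29% (X, 35 of 422, interval 6.02 to 11.3), with chromosomes 18 at 8.21% (28 of 341) and 1 at 7.96% (62 of 779). X was highest on both sides, and its interval lay wholly above those of chromosomes 7 and 17 on the higher side and of chromosomes 4, 11 and 13 on the lower side. This order depended on the processing, since chromosome 18 led the lower side with lists of equal size (8.46%), chromosome 12 with percentiles among marked promoters (13.4%), and chromosome 15 the higher side with centred differences (4.09%). Only counting error is covered by the intervals, and promoters side by side can share a difference. X and the chromosomes it was set against were picked after ranking. Promoters of X were also weaker in Q7SST, with a median of 69.7 over the 332 marked in all 5 lists, against 82.4 over all 11456. The part of this in the shares was not tested.

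Chromosomes also differed in the size of small differences. The median of the mean difference from Q7SST was -5.75 percentile points over 382 promoters of chromosome 12 and -5.71 over 567 of chromosome 17, against -1.58 over all 11456. It was 0.58 over 471 promoters of chromosome 13 and 0.91 over 332 of X. On chromosome 12 all 4 compounds were below Q7SST, at -6.47, -0.77, -10.2 and -3.84. On chromosome 17 the medians were -6.14, -3.06, -9.01 and -4.04. X was split, at -2.06 and -2.50 with cyproheptadine and DKI and at 4.06 and 5.20 with loxapine and meclizine.

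**Figure D5:**
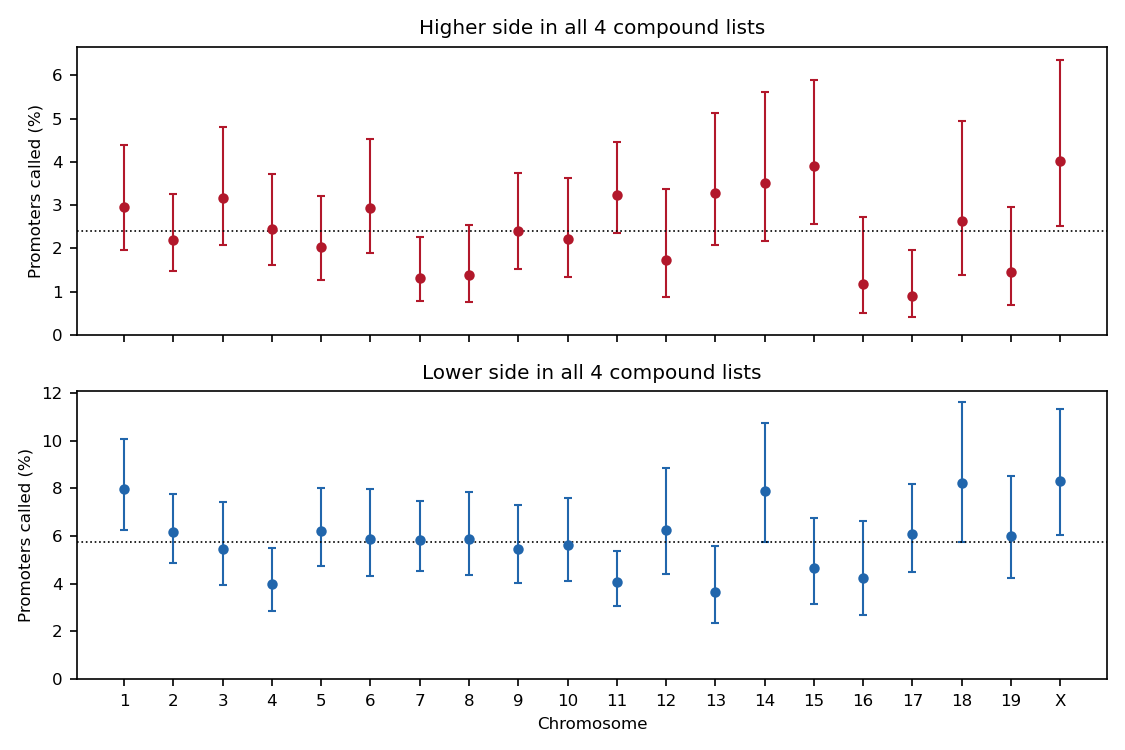
Share of promoters on each chromosome called on the higher side (top) and on the lower side (bottom) in all 4 compound lists, in percent, with 95% Wilson intervals for counting error. Dotted lines give the shares over all promoters, 2.41% and 5.74%, and X has the highest point in both panels.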

How the data were processed

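H3K4me3 ChIP-Seq peak lists, 1 per condition, were analysed for 4 compounds and Q7SST, with Q111SST as a level. Per the labels, the authors' processing notes name mm10, Trimmomatic 0.36, Bowtie2, SAMtools 1.3 and MACS2, and give no roles, thresholds, input control or pooling. The design text describes treatment in triplicate. The deposited score per peak is a whole number of at least 10 whose scale is not stated, so scores were ranked within each list, which removes any constant scale but not the effect of list length. The stricter threshold is an exception, since 1 score was applied to all 6 lists. Depth is unknown. No peak passed a GRCm38 chromosome end (0 of 21 chromosomes).

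Percentiles were average ranks. Starts came from the GENCODE vM21 basic set, with 1 entry per symbol. The 4 calls were tested on simulated data. With 1 list per condition no test between conditions was made. The members and lists were chosen with earlier results of these data known. Named genes were the 8 leading entries per group, up to 3 called members per list and direction, Htt, runs of at least 3 neighbours, and promoters at the thresholds; cell type markers and exceptions are named beside them. Scripts ran under Python 3.11.15 with scipy 1.17.1, pandas 2.3.3, pysam 0.24.0 and numpy 2.4.6. Windows, thresholds, list sizes, ranking and the lists required were varied. Results for 2 called promoters are not reported here.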

Additional observations from a re-analysis of the deposited data

How the results depend on the processing

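Across all alternatives, promoters marked in the compound lists only numbered between 147 and 264, and those marked in Q7SST only between 516 and 802. Counts are not the same promoters: keeping peaks with a score of at least 47, the median over the 6 lists, kept 33.3% of the 204, 30.5% of the 659, 30.8% of the 120 higher and 7.08% of the 113 lower promoters. Requiring a peak over the start left 71 higher and 50 lower promoters, a threshold of 10 percentile points gave 331 and 465, and one of 30 gave 56 and 26. Percentiles among marked promoters gave 242 higher and 360 lower, against 120 and 113, so the split between directions depends on this choice, and chromosomes X and 14 then both had 5.92% on the higher side. Under it chromosomes 12 and 17 led the lower side, at 13.4% and 11.4%. Leaving out the loxapine or the meclizine list raised the lower promoters to 176 and 202, fewer lists having to agree. Ptprb, at 0.137 in Q7SST, turned to 1.41 when differences were centred on each list's median. With the full annotation, added after seeing the data, the counts were 211, 663, 125 and 122. No paired analysis was possible because there was 1 list per condition. Depth could not be weighed, since read totals were not used here.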
